A study of Mus musculus with 6 samples.

Results

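The genes described here are the thrombospondins Thbs1, Thbs2, Thbs3 and Thbs4 and the thrombospondin receptor gene Cd47. They were chosen by gene symbol from the deposited count table, and all 5 listed symbols were found among its 24421 genes. The set was picked with earlier results of the same comparison known, so its differences between the groups are given as a description and carry no weight as evidence. RNA of bulk cortex was sequenced from mice of strain C57BL/6. All had undergone MCAO, the blocking of the middle cerebral artery used to model ischaemic stroke. Of the 6 libraries, 3 (GFP) came from mice treated with the fluorescent protein GFP as control, and 3 (NeuroD1) from mice treated with NeuroD1, a proneural factor able to turn other cells into neurons. The series title speaks of an intravenous gene therapy. Every animal had the occlusion, so no uninjured group is compared here. The sources used here give no vector, promoter, interval after stroke, age or sex. Nor do they say that libraries stem from separate animals, and the spread among them, and p-values with it, could be partly technical.

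Thrombospondins are secreted glycoproteins that sit in the extracellular matrix and act on cells rather than hold tissue together. Thbs1 and Thbs2 form trimers and carry type 1 repeats, through which they bind the scavenger receptor Cd36 and restrain the growth of blood vessels, and Thbs1 can also activate latent TGF-beta. Thbs3 and Thbs4 form pentamers and lack those repeats. Astrocytes secrete thrombospondins that promote the formation of excitatory synapses through the calcium channel subunit encoded by Cacna2d1, while platelets and macrophages are further sources of Thbs1. Cd47, a membrane protein found on most cells, binds the carboxy-terminal part of Thbs1, and its binding to Sirpa on phagocytes restrains their uptake of the cell.

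The libraries held 7753101 to 9698795 counts with GFP and 10843273 to 13440244 with NeuroD1, so every NeuroD1 library was the deeper. Neurod1 averaged 5.26 ± 1.31 CPM (counts after TMM scaling by library size) with GFP and 33.8 ± 17.4 with NeuroD1 (SD, n = 3 each). Its counts in replicates 1, 2 and 3 were 64, 29 and 50 with GFP and 644, 151 and 428 with NeuroD1. The lowest NeuroD1 library was replicate 2, at 14.6 CPM. Libraries of the same group differed by 0.45 to 0.83 in log2 CPM (root mean square over 14852 genes), and pairs between groups by 0.48 to 1.075. The closest pair between groups was GFP replicate 1 and NeuroD1 replicate 3. Cortical neuron markers were present in all libraries. For instance, Slc17a7, the glutamate transporter of cortical excitatory neurons, was at 1036.0 ± 211.1 CPM with GFP and 1137.1 ± 747.6 with NeuroD1. It was lowest in NeuroD1 replicate 2, at 368.6 CPM. The summed choroid plexus markers were 820.5 CPM in GFP replicate 2 and 17.5 to 141.7 in the other libraries.

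With GFP, Thbs4 was the most abundant of the 5 genes per kilobase of exon and Thbs1 the least, whereas with NeuroD1 Thbs1 led in 2 of 3 libraries. In the GFP libraries the level per length was 24.7 ± 8.01 CPM per kb for Thbs4, 5.70 ± 1.08 for Thbs3, 4.94 ± 0.57 for Cd47, 3.60 ± 0.62 for Thbs2 and 2.71 ± 0.37 for Thbs1 (SD, n = 3). Thbs4 stood above all others in each GFP library, and Thbs1 was the lowest in each. The ranges of Thbs3 (4.45 to 6.40) and Cd47 (4.61 to 5.60) overlapped, and the order of these neighbours differed between GFP libraries. The ranges of Thbs2 (2.94 to 4.17) and Thbs1 (2.31 to 3.04) overlapped as well, although Thbs2 was above Thbs1 within each GFP library.

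In the NeuroD1 libraries the order of mean levels per length was Thbs1 (31.4 ± 28.1 CPM per kb), Thbs4 (12.1 ± 10.8), Cd47 (11.5 ± 2.52), Thbs2 (7.65 ± 3.20) and Thbs3 (3.48 ± 1.10). The ranges of all neighbours in this order overlapped. Against all 14327 tested genes with an annotated length, Thbs1 stood at the 30.1st percentile of mean level with GFP and at the 89.5th with NeuroD1. Thbs4 stood at the 86.5th percentile with GFP and at the 70.8th with NeuroD1.

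The makeup of the 4 thrombospondins together differed in the same way. Thbs4 supplied 70.3%, 72.6% and 55.2% of their summed level per length in GFP replicates 1, 2 and 3, and Thbs1 supplied 7.75%, 5.43% and 9.77%. In NeuroD1 replicates 1 and 2 Thbs1 supplied 56.2% and 74.1%, and Thbs4 13.4% and 8.57%. NeuroD1 replicate 3 lay between, with 26.4% from Thbs1 and 55.1% from Thbs4, the latter close to the lowest GFP share. The sum itself was 36.7 ± 7.40 CPM per kb with GFP and 54.7 ± 27.5 with NeuroD1 (SD, n = 3), and its ranges overlapped.

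**Figure D1:**
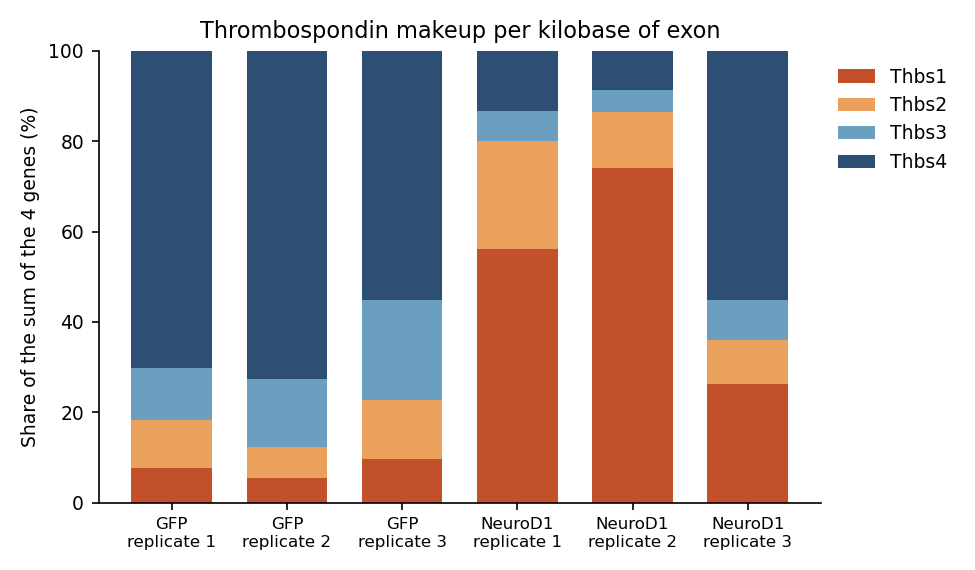
Share of each thrombospondin gene in the summed level per kilobase of exon of Thbs1, Thbs2, Thbs3 and Thbs4 (y axis, percent), 1 bar per library (x axis). Thbs4 makes up 55.2% to 72.6% of the bars of the GFP libraries, and Thbs1 56.2% and 74.1% of those of NeuroD1 replicates 1 and 2, while NeuroD1 replicate 3 holds 55.1% Thbs4.

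Thbs1 (ENSMUSG00000040152.8, chromosome 2, 118111876 to 118127133, plus strand, GRCm38) was read with 182, 105 and 155 counts in the GFP libraries and with 1530, 3988 and 791 in the NeuroD1 libraries, in the order of their replicate numbers, which is kept throughout. In CPM these are 18.4, 14.0 and 16.8 with GFP and 115.2, 385.9 and 71.0 with NeuroD1. Every NeuroD1 library was above every GFP library, and the highest NeuroD1 library held 5.44 times the lowest, whereas the GFP libraries lay within 1.31 times of each other. The log2 fold change was 3.53 (SE 0.61), an 11.6-fold higher level and the 10th largest difference in size among 14852 genes. Without NeuroD1 replicate 2 it was 5.68-fold. That library held the most Thbs1 and the least Neurod1 of its group. In bulk tissue a larger number of cells that make a transcript and more of it per cell cannot be told apart, here and for the other genes. An annotated long noncoding RNA gene, Gm29233, runs on the opposite strand and shares 208 exon bases with Thbs1, and its reads cannot be separated, since no source used here gives the strand setting of the counting.

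Thbs2 (ENSMUSG00000023885.9, chromosome 17, 14665500 to 14694235, minus strand), the closest relative of Thbs1 in domain structure, had 288, 154 and 239 counts with GFP and 750, 769 and 333 with NeuroD1. Its CPM was 29.2, 20.6 and 26.0 with GFP and 56.5, 74.4 and 29.9 with NeuroD1. The groups did not overlap, but NeuroD1 replicate 3 lay just above GFP replicate 1. The log2 fold change was 1.08 (SE 0.33), a 2.12-fold higher level with NeuroD1.

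Thbs4 (ENSMUSG00000021702.7, chromosome 13, 92751590 to 92794818, minus strand), a thrombospondin that astrocytes of the injured brain have been described to make in mice, went the other way in 2 of 3 NeuroD1 libraries. It had 894, 761 and 474 counts with GFP and 197, 250 and 896 with NeuroD1, or 90.5, 101.6 and 51.5 CPM against 14.8, 24.2 and 80.4. NeuroD1 replicates 1 and 2 were below every GFP library, and NeuroD1 replicate 3 lay inside the GFP range. The log2 fold change over all libraries was -1.03 (SE 0.57), a 2.04-fold lower level. Without NeuroD1 replicate 3 it was -2.05 (SE 0.38), a 4.15-fold lower level.

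Thbs3 (ENSMUSG00000028047.11, chromosome 3, 89215180 to 89226837, plus strand), a pentameric thrombospondin like Thbs4, had 212, 231 and 277 counts with GFP and 143, 213 and 212 with NeuroD1. Its CPM was 21.5, 30.9 and 30.1 with GFP and 10.8, 20.6 and 19.0 with NeuroD1. The groups did not overlap, with NeuroD1 replicate 2 just under GFP replicate 1, and the log2 fold change was -0.71 (SE 0.29), a 1.64-fold lower level. Thbs3 shares 318 exon bases with Mtx1, a gene of the mitochondrial outer membrane on the opposite strand, whose reads cannot be separated in the overlap. Mtx1 itself was at 28.4 ± 1.78 CPM with GFP and 33.8 ± 7.11 with NeuroD1 (SD, n = 3).

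Comp, the remaining thrombospondin gene and mainly a cartilage matrix protein, was near the floor of the data, with 10, 14 and 18 counts with GFP and 6, 20 and 11 with NeuroD1. Its groups overlapped (log2 fold change -0.53, SE 0.59), and the fitted level was 1.45-fold lower with all libraries and 2.23-fold lower without NeuroD1 replicate 2.

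Cd47 (ENSMUSG00000055447.19, chromosome 16, 49800533 to 49915010, plus strand) had 347, 217 and 266 counts with GFP and 1110, 812 and 602 with NeuroD1. Its CPM was 35.1, 28.98 and 28.9 with GFP and 83.6, 78.6 and 54.0 with NeuroD1, so all 3 NeuroD1 libraries were clear of the GFP libraries. The log2 fold change was 1.22 (SE 0.23), a 2.32-fold higher level, with a range of 1.10 to 1.39 over the fits that each omit a single library. Among the 5 genes Cd47 had the smallest SE.

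**Figure D2:**
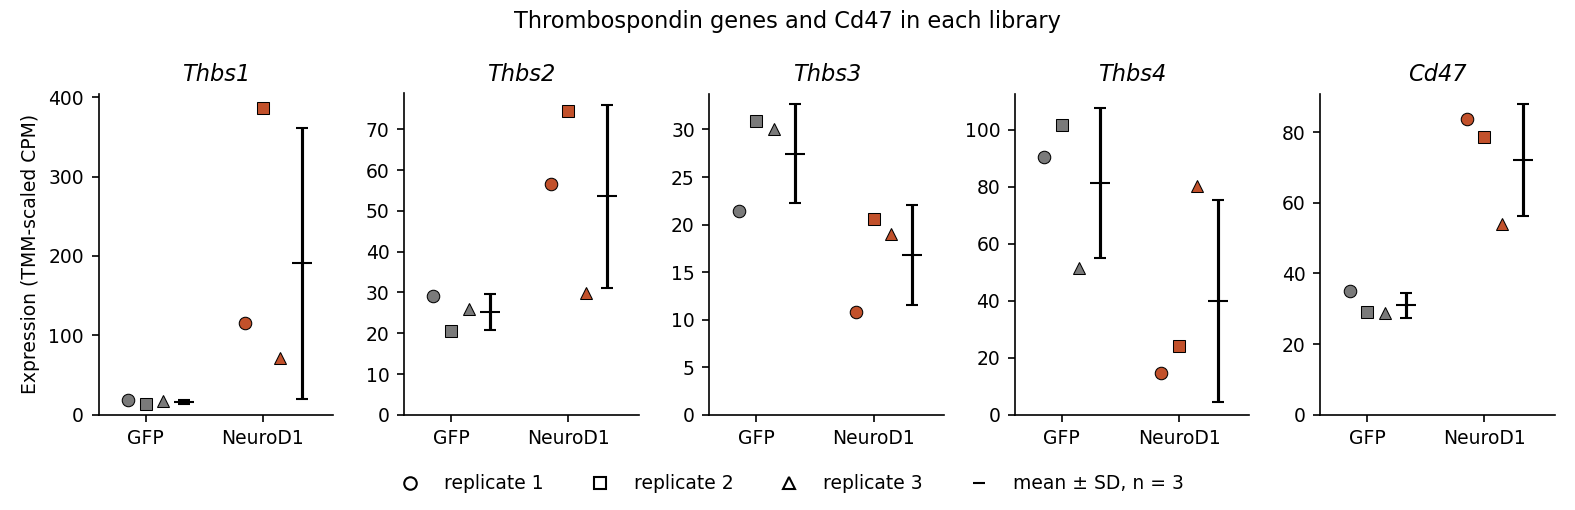
Expression of Thbs1, Thbs2, Thbs3, Thbs4 and Cd47 (y axis, TMM-scaled CPM from 0, its own scale in each panel) in each GFP and NeuroD1 library (x axis), with symbols for the replicate numbers and bars for mean ± SD, n = 3. The groups are apart in every panel except that of Thbs4, where NeuroD1 replicate 3 sits at 80.4 CPM among the GFP libraries.

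None of the 5 genes passed the threshold of 0.05 on the Benjamini-Hochberg adjusted p of edgeR's quasi-likelihood test, and 0% of all 14852 tested genes did. The smallest adjusted p of any gene was 0.136. At an unadjusted p under 0.05 there were 4 of 5 (all but Thbs4) against 24.0% of all genes, and the groups did not overlap in 4 of 5 against 29.6% of all genes. By direction, 3 of 5 were higher without overlap against 14.2% of all genes, and 1 was lower against 15.3%. Limma-voom called 0 genes at an adjusted p under 0.05. DESeq2 called Thbs1, Thbs2 and Cd47, all higher (3 of 5), against 8.99% of the genes it tested, 5.07% higher and 3.93% lower. With the replicate number as a block edgeR called Thbs1 and Cd47 (2 of 5), both higher, against 3.23% of all genes, 1.47% in that direction. Without NeuroD1 replicate 2 it called 0 of 5 and 0.00662% of all genes. Since the genes were picked with this comparison in view, nothing is read from these shares. All 5 kept the sign of their fold change in each of 13 alternative settings.

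**Figure D3:**
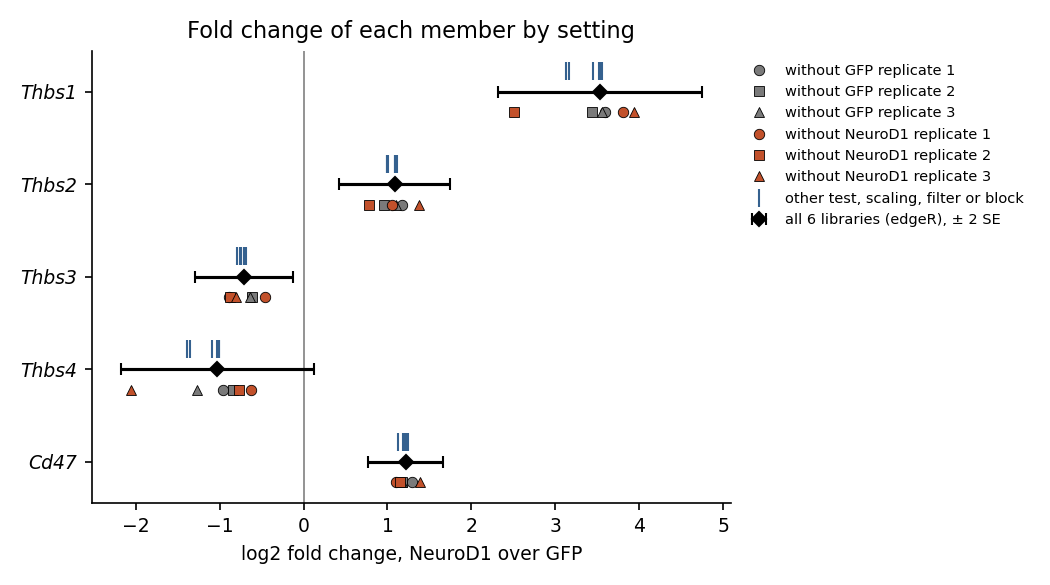
Log2 fold change of NeuroD1 over GFP (x axis) for each of the 5 genes (y axis), from edgeR with all 6 libraries (diamond, bar of 2 SE either side), with each library left out (coloured symbols) and with other tests, scalings, filters or the replicate block (vertical ticks). Thbs1 falls from 3.53 to 2.51 without NeuroD1 replicate 2, and Thbs4 moves from -1.03 to -2.05 without NeuroD1 replicate 3.

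The spread between the NeuroD1 libraries was itself uneven among the genes. The SD of log2 CPM over the 3 NeuroD1 libraries was 1.26 for Thbs1 and 1.25 for Thbs4, against a median of 0.35 over all tested genes, and both were above the 98th percentile of genes. It was 0.67 for Thbs2, 0.50 for Thbs3 and 0.34 for Cd47. In the GFP libraries the SD was 0.20 for Thbs1, 0.25 for Thbs2, 0.29 for Thbs3, 0.52 for Thbs4 and 0.16 for Cd47, against a median of 0.27. Thbs1 therefore varied less than the median gene with GFP and more than nearly all genes with NeuroD1.

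Likeness of profiles was measured as the root mean square difference in log2 CPM over the 6 libraries, after each gene was centred on its own mean. Cd47 and Thbs2 were alike, at 0.26, and Cd47 ranked 380th of 14851 other genes by likeness to Thbs2. Thbs3 and Thbs4 differed by 0.76, Thbs1 and Thbs2 by 1.155, and Thbs1 and Thbs4 by 2.60. The measure grows with a gene's own variation (root mean square 1.74 for Thbs1 and 0.65 for Thbs2), so these values do not order the pairs. By likeness to Thbs1, Thbs2 ranked 533rd, Cd47 560th and Thbs4 14638th. By likeness to Thbs3, Thbs4 ranked 10404th, while Thbs3 ranked 1364th by likeness to Thbs4. The 5 genes nearest Thbs1 were Prokr1 (0.23), a prokineticin receptor, Ulbp1 (0.35), a ligand of the NKG2D receptor, Tlr8 (0.39), a sensor of RNA in endosomes, Cd36 (0.51), and Nxpe5 (0.51). Of these, Prokr1, Ulbp1 and Nxpe5 were below 1 CPM in every GFP library and passed the count filter through the NeuroD1 libraries. Nearest Thbs2 were Galnt7 (0.074), Adam17 (0.10) and Fstl1 (0.11), and nearest Cd47 were Chst15 (0.077), Tlr7 (0.090) and Lyst (0.098). Nearest Thbs3 were Whamm (0.044), Fbxl6 (0.068) and Tmem80 (0.071), and nearest Thbs4 were 1700003M02Rik (0.23), Ccdc170 (0.31) and Gm15612 (0.31). The named neighbours of Thbs4 were near the floor, each below 1 CPM in NeuroD1 replicates 1 and 2. The genes share the 6 libraries, which differ in depth and in cell type marker levels, so the likeness is a description only.

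Promoter windows are shown because NeuroD1, the delivered factor, binds E-boxes, short sites of the form CANNTG. RefSeq starts on GRCm38.p6 were available for Thbs2, Thbs3, Thbs4 and Cd47. The 250 bases upstream of the start held 1 E-box each in Thbs2, Thbs3 and Thbs4 and 0 in either window of Cd47, searched on both strands. Such a match is common, with at least 1 in 66.2% of all 32851 promoter windows of this length. The Cd47 windows, at chr16:49855404-49855653 and chr16:49855411-49855660 (plus strand), lie inside the span given above for Cd47. The bases upstream of the first base of that span were not searched. The windows lie at chr17:14694263-14694512 (minus strand) for Thbs2, chr3:89214930-89215179 (plus strand) for Thbs3 and chr13:92794819-92795068 (minus strand) for Thbs4, and are written 5′ to 3′ along the gene with the E-box in capitals.
Thbs2: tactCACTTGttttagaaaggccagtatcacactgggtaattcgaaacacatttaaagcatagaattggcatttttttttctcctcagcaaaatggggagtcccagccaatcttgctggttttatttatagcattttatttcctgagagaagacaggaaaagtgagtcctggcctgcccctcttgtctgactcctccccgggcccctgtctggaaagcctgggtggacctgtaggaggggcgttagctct
Thbs3: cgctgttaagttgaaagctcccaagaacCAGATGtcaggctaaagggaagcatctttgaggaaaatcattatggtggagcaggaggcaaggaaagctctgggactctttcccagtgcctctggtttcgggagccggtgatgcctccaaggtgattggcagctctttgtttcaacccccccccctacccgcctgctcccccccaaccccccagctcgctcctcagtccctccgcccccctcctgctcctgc
Thbs4: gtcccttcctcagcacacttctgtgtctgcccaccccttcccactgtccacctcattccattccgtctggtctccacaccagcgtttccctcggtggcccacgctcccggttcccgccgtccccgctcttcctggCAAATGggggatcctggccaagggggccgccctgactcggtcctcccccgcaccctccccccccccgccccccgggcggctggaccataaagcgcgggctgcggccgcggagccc
The E-box of Thbs3 begins 222 bases upstream of the start and reads CAGATG, a form found in 14.4% of all windows, counting its reverse complement too, and every CAGATG is also a CANNTG. That of Thbs2 begins 246 bases upstream and reads CACTTG, and that of Thbs4 begins 115 bases upstream and reads CAAATG. Thbs2, at a higher level with NeuroD1, and Thbs3 and Thbs4, at lower levels, thus each hold 1 match, and a match in letters is not evidence of binding.

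Markers of other cell types differed between the libraries along with these genes. All 11 tested markers of infiltrating macrophages and monocytes (of 12 listed) had higher fitted levels with NeuroD1, and their summed level was 120.3 to 159.2 CPM with GFP and 270.7 to 675.6 with NeuroD1. The fibroblast and meningeal markers (8 of 10 higher) summed to 1159 to 2157 CPM with GFP and 1899 to 8349 with NeuroD1, where NeuroD1 replicate 3 lay inside the GFP range. Both sums were highest in NeuroD1 replicate 2, followed by replicate 1 and then replicate 3, the order of Thbs1 and Thbs2. The microglial sum had the same order, at 8951, 7011 and 5333 CPM in NeuroD1 replicates 2, 1 and 3. Only few orders of 3 libraries exist, so this order is a description only. Platelet and megakaryocyte markers, from cells that store Thbs1 protein, summed to 23.0 to 42.2 CPM with GFP and 22.7 to 37.9 with NeuroD1, so the groups overlapped, and 4 of 10 had enough counts to be tested.

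Endothelial markers were lower in all 10 of 10 fitted values, with sums of 597.6 to 911.9 CPM with GFP and 225.3 to 466.4 with NeuroD1. Oligodendrocyte markers (9 of 10 lower) also had sums that did not overlap, at 11349 to 21540 CPM with GFP and 7391 to 9868 with NeuroD1. Astrocyte markers (8 of 10 lower) summed to 8487 to 14615 CPM with GFP and 5326 to 9775 with NeuroD1, and the groups overlapped. Pericyte and smooth muscle markers (342.9 to 513.6 and 267.3 to 518.5 CPM), microglial markers (5278 to 6928 and 5333 to 8951) and neuronal markers (2487 to 4523 and 1702 to 5188) overlapped between the groups. The astrocyte and neuronal sums were both lowest in NeuroD1 replicate 2, at 5326 and 1702 CPM, below every GFP library. No listed marker was at 0 in all libraries. The part of these cell types in the differences of the thrombospondins and Cd47 was not tested.

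**Figure D4:**
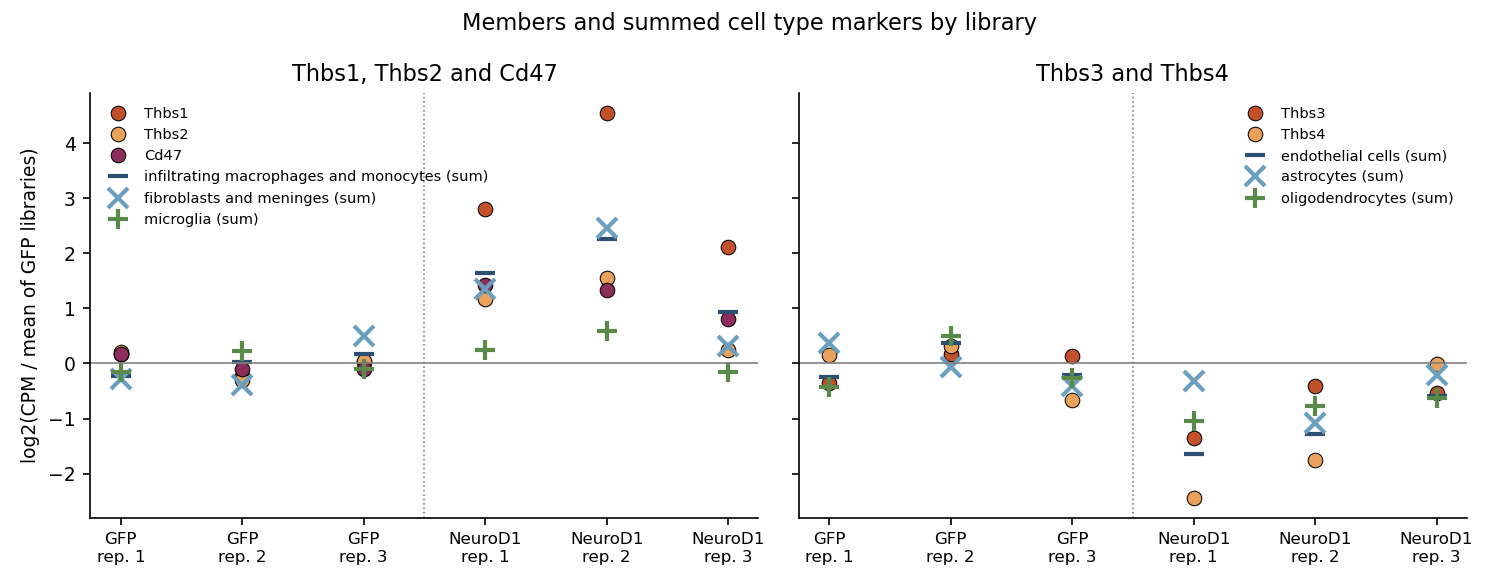
Level of each gene (circles) and summed level of cell type marker lists (other symbols) in each library (x axis), as log2 of the CPM over the mean of the GFP libraries (y axis). In NeuroD1 replicate 2 Thbs1 is at 4.55, above the macrophage and fibroblast sums, and in NeuroD1 replicate 3 Thbs4 is at -0.014, near the GFP mean, while Thbs3 is at -0.53.

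Related genes were grouped in 7 lists, described here in no order of rank. The first list held receptors and binding partners of thrombospondins. Of 18 tested, 0 passed the adjusted threshold in either direction, and at an unadjusted p under 0.05 there were 7 higher and 0 lower, against 12.5% and 11.5% of all genes. The list's median log2 fold change was 0.57, against 0.024 over all genes. Cd36, the scavenger receptor that binds Thbs1 and Thbs2, was at 10.03, 15.8 and 28.3 CPM with GFP and 168.5, 489.0 and 86.5 with NeuroD1. Its groups did not overlap, it was highest in the same NeuroD1 library as Thbs1, and its log2 fold change was 3.78 (SE 0.68), 13.8-fold, or 7.11-fold without NeuroD1 replicate 2. Itga4, an integrin subunit by which leukocytes enter tissue, was 2.94-fold higher (1.56, SE 0.23). Itgav, an integrin subunit that binds thrombospondins and activates TGF-beta, was 3.47-fold higher (1.80, SE 0.35). These 3 had edgeR adjusted p of 0.136 each. Leave-one-out fits gave 4 to 8 higher and 0 or 1 lower, the 4 in the fit that omits GFP replicate 3.

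The genes of Cd47 signalling included Sirpa and the nitric oxide pathway that Thbs1 restrains through Cd47. Of 10 tested, 0 passed the adjusted threshold, and 2 were higher and 1 lower at an unadjusted p under 0.05 (30.0%, near the 24.0% of all genes), with a median of 0.38. Nos3, the endothelial nitric oxide synthase, was at 30.9 ± 12.9 CPM with GFP and 11.9 ± 3.77 with NeuroD1 (log2 fold change -1.37, SE 0.35). It was below every GFP library in all 3 NeuroD1 libraries, as the endothelial marker sum was. Prkg1, the kinase activated by cyclic GMP, was 1.73-fold higher (0.79, SE 0.28), and Ptpn6, a phosphatase recruited by Sirpa, was 1.81-fold higher (0.85, SE 0.37) with overlapping groups. Omitting GFP replicate 2 gave 1 higher and 1 lower, omitting GFP replicate 3 gave 0 and 2, omitting NeuroD1 replicate 1 gave 0 and 1, and omitting NeuroD1 replicate 3 gave 2 and 2.

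The genes of latent TGF-beta activation had a median log2 fold change of 0.77, with 5 of 14 higher and 1 lower at an unadjusted p under 0.05 (42.9%, against 24.0% of all genes) and 0 past the adjusted threshold. Ltbp4, a binding protein of latent TGF-beta, was at 153.3 ± 46.4 CPM with GFP and 68.8 ± 24.1 with NeuroD1 (-1.156, SE 0.33). Tgfbr1, a TGF-beta receptor, was 2.20-fold higher (1.14, SE 0.32), and Itgav belongs to this list too. Without NeuroD1 replicate 2 the median was 0.28, with 3 genes higher and 1 lower, against 24.1% of all genes. Omitting GFP replicate 2 gave 3 higher and 1 lower, against 11.9% of all genes. Omitting GFP replicate 3 gave 2 higher and 1 lower, against 12.5%.

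Other matricellular genes, which like the thrombospondins encode matrix proteins that signal to cells, had 7 of 15 higher and 0 lower at an unadjusted p under 0.05 (46.7%, against 24.0% of all genes), 0 past the adjusted threshold and a median of 0.18. Postn, or periostin, was 2.67-fold higher (1.42, SE 0.42), Nov 2.59-fold (1.37, SE 0.46) and Wisp1 2.63-fold (1.40, SE 0.47), the last 2 being members of the CCN family. Higher genes numbered 2 on omitting GFP replicate 2, 3 on omitting GFP replicate 1 or NeuroD1 replicate 1, and 5 or 6 in the remaining fits. Of 18 other proteins with type 1 repeats 0 were higher and 4 lower at that level (22.2%, near the 24.0% of all genes), 0 past the adjusted threshold, with a median of 0.32. The groups did not overlap in 11.1% of them, against 29.6% of all genes. Adgrb1, a brain receptor whose type 1 repeats also restrain vessel growth, was at 500.1 ± 27.5 CPM with GFP and 271.0 ± 90.9 with NeuroD1 (-0.88, SE 0.29). Thsd1 and Sspo were 1.85-fold and 2.09-fold lower (-0.89, SE 0.34, and -1.06, SE 0.42). This list had 0 higher and 0 lower on omitting NeuroD1 replicate 1, 0 and 1 on omitting GFP replicate 2, 0 and 2 on omitting GFP replicate 3, 4 and 3 on omitting NeuroD1 replicate 2, and 1 and 3 on omitting NeuroD1 replicate 3.

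Among 9 other genes listed for astrocytes and synapses 2 were higher and 0 lower at an unadjusted p under 0.05 (22.2%, near the 24.0% of all genes). Of these 9, 0 passed the adjusted threshold, and their median was 0.13. The lowest p were those of Gpc6, a glypican (1.59-fold, 0.67, SE 0.29), Tgfb1 (1.96-fold, and 1.24-fold without NeuroD1 replicate 2) and Ttyh1 (1.53-fold lower), each with overlapping groups. None was left at that level on omitting either GFP replicate 2 or 3, where 11.9% and 12.5% of all genes were. On omitting GFP replicate 1 or NeuroD1 replicate 2 there was 1, against 27.9% and 24.1% of all genes. The median was -0.064 on omitting NeuroD1 replicate 1 and -0.016 on omitting GFP replicate 2. Of 14 regulators of Thbs1 transcription 4 were higher and 2 lower at that level (42.9%, against 24.0% of all genes) and 0 passed the adjusted threshold, with a median of 0.022. Id1, a repressor of Thbs1, was at 40.1, 48.9 and 38.9 CPM with GFP and 24.2, 24.97 and 24.4 with NeuroD1, with no overlap (-0.80, SE 0.19). Hif1a, the oxygen-sensing factor, was 2.82-fold higher (1.497, SE 0.37) and Klf6, a zinc finger factor induced by injury, 1.59-fold higher (0.67, SE 0.24). On omitting either GFP replicate 2 or 3 this list had 1 higher and 1 lower, against 11.9% and 12.5% of all genes. Its median was below 0 in these fits. It was also below 0 on omitting NeuroD1 replicate 2 (-0.054, with 2 higher and 1 lower, against 24.1% of all genes).

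Over all lists 33 of 92 tested partner genes (35.9%) had an unadjusted p under 0.05, 25 higher and 8 lower, against 24.0% of all genes. The groups did not overlap in 29 (31.5%), against 29.6% of all genes. Without GFP replicate 2 the count at an unadjusted p under 0.05 was 16, without GFP replicate 3 it was 18 and without NeuroD1 replicate 1 it was 20, while the shares of all genes were 11.9%, 12.5% and 13.3%. The cause of these shifts was not tested.

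**Figure D5:**
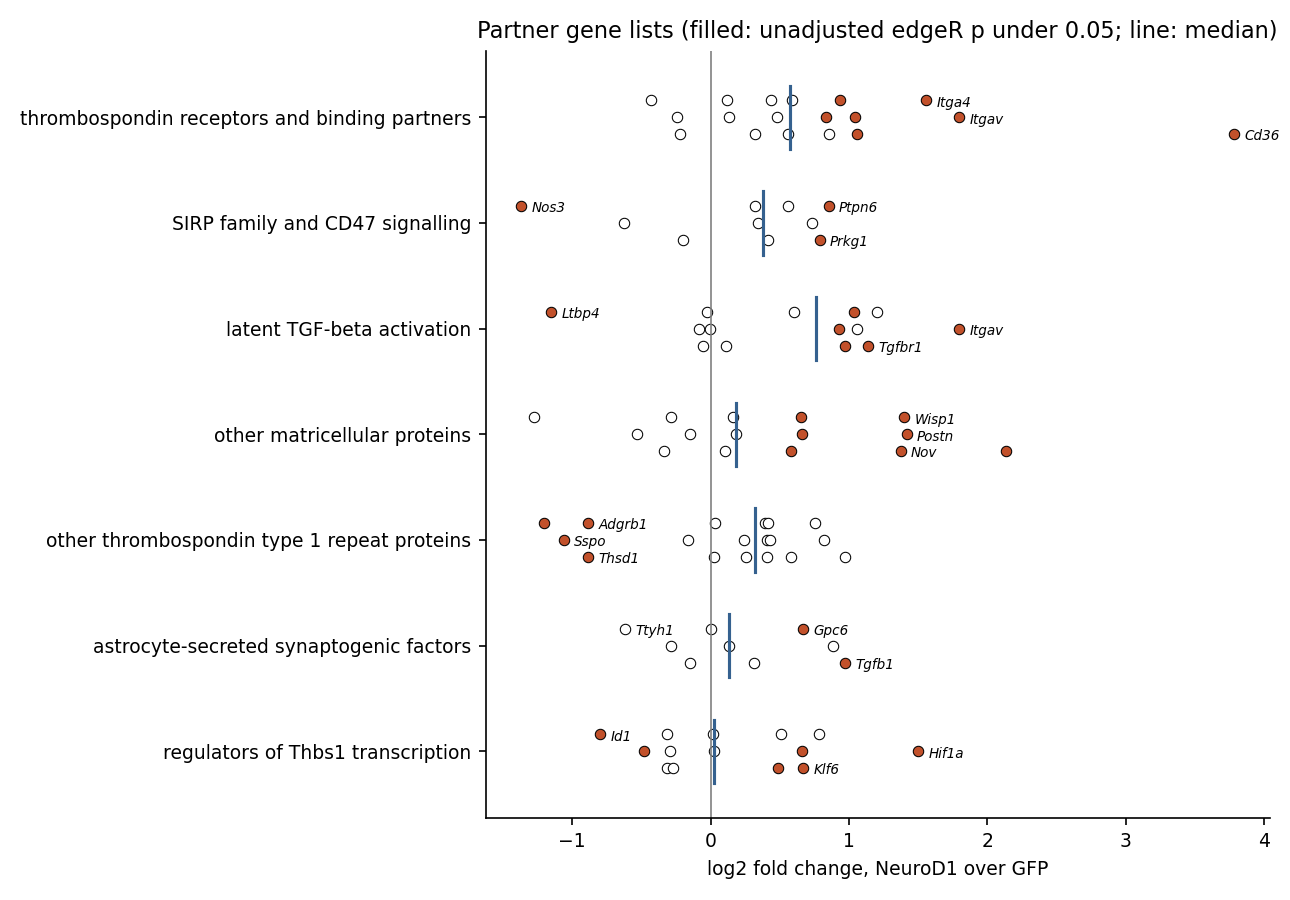
Log2 fold change of NeuroD1 over GFP (x axis) for each tested partner gene (points) in the 7 lists (y axis), filled where the unadjusted edgeR p was under 0.05, with a line at the list's median and names for the genes with the smallest p. Cd36 stands apart at 3.78, and the filled points of the other proteins with type 1 repeats all lie below 0.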

How the data were processed

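Gene expression was measured by RNA sequencing in 6 cortex samples, 3 per group. The deposited values are raw counts for each gene symbol, and per the file headers featureCounts produced them with a gene file of mm10. The submitters' processing notes also list GRCm38, HISAT2 2.0.1 and DESeq2 1.16.1 without saying what each was used for. The sources used here give no strand setting, annotation release or read filter. Columns were matched to samples by their description.

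From these counts, edgeR 4.0.16 (R 4.3.3) kept 14852 genes by filterByExpr (minimum count 10, minimum total 15), which included all 5 members, scaled them by TMM and tested NeuroD1 against GFP with the two-sided quasi-likelihood F-test, treatment as the only term. P-values were adjusted by Benjamini-Hochberg over all tested genes. Standard errors came from the F statistic. Single counts were worth 0.0753 to 0.134 CPM. No 2 libraries agreed within sampling noise (chi-square per gene from 24.9 upward, about 1 for duplicates).

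Levels per kilobase used the union of exons of GENCODE M21, where 14327 tested genes (96.5%) matched by symbol. Promoters came from RefSeq, GRCm38.p6. Log2 CPM for profiles had a prior count of 2. Alternatives were DESeq2 1.42.0, limma-voom 3.58.1, other scalings and filters, a replicate block and each library left out. The tests were run on simulated counts with known changes first. Named genes were the members, Comp, the 3 partner genes per list with the smallest p, and the 5 (Thbs1) or 3 (others) nearest profiles. Slc17a7, Mtx1 and Neurod1 serve as checks. The members and lists were chosen with earlier results of these data known.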

Additional observations from a re-analysis of the deposited data

How the results depend on the processing

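No member changed sign under any of the 13 alternatives. All 5 stayed on the same side of the threshold with limma-voom, both other scalings, both other filters and each library left out. With DESeq2, Thbs1 (log2 fold change 3.54, adjusted p = 3.81e-07), Cd47 (1.23, 0.00067) and Thbs2 (1.10, 0.0372) passed. DESeq2 called 1374 genes where edgeR called 0, or 8.99% of those it tested. Among the 94 partner genes found by symbol it called 16, 12 higher and 4 lower, where edgeR called 0. With the replicate number as a block, Thbs1 (3.13, adjusted p = 0.0455) and Cd47 (1.20, 0.0455) passed. In that fit 479 genes passed in all (3.23% of those tested), and 6 of 92 tested partner genes. The labels tie the numbers to no shared animal or day, so the numbers were not taken as pairs. The deviations of same-numbered libraries correlated at 0.54, 0.37 and 0.039. Those of the other pairs between groups ranged from -0.467 (GFP replicate 2 with NeuroD1 replicate 1) to 0.13 (GFP replicate 3 with NeuroD1 replicate 2). The deviations are from each group's own mean and cancel within a group. A positive value in some pairs thus forces lower values in others, and the contrast is partly fixed in advance. Whether same-numbered libraries share a factor was not tested. With a library left out, edgeR called 0 to 1 genes (1 without NeuroD1 replicate 2, Neurod1) and 0 partner genes, while partner genes at an unadjusted p under 0.05 ranged from 16 to 37, against 33. Log2 fold changes then ranged from 2.51 to 3.93 for Thbs1, 0.78 to 1.38 for Thbs2, -0.89 to -0.46 for Thbs3, -2.05 to -0.63 for Thbs4 and 1.10 to 1.39 for Cd47. The shares of the thrombospondin sum moved by less than 1 SD with the longest transcript as length. Without NeuroD1 replicate 3 the mean share of Thbs4 with NeuroD1 was 11.0%, against 25.7%. The cause of the differences between tests was not tested. With 3 libraries a group, Comp rested on 6 to 20 counts a library and the 5 genes on 105 or more.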
